A study of Homo sapiens with 9 samples.

Results

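The genes described here are the enzymes of glycolysis, the transporters that feed it, a set of genes switched on by low oxygen, and the carbonic anhydrase CA12, measured in HK-2 cells given TGFβ1. They were picked by symbol from a list of 35 genes, drawn up with earlier results of these data known: 33 of them had a named probe set in the annotation used, and the other 2 are not analysed here. Of the 33 genes, 29 reached a log2 value of 4 on at least 3 of the 9 arrays and were tested, out of 4368 genes tested among 11963 with a named probe set. Each gene was read from the probe set with its highest mean, and all 6 CA12 probe sets were read. HK-2 is an immortalised line of human kidney proximal tubule epithelium, and TGFβ1 is a cytokine that drives such cells from an epithelial towards a mesenchymal state.

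Total RNA was hybridised to 9 Affymetrix arrays in 3 groups of 3: untreated cells at 0 h, and cells given TGFβ1 for 24 h or for 48 h. The whole experiment was done on 3 different days with consecutive passages of the line, called runs 1, 2 and 3, and each run holds an array of every group. Plates of a time point were pooled within a run, so 1 array stands for 1 pool. The sample labels call the 0 h cells untreated and the series' design text calls them vehicle, and the sources used here do not give the TGFβ1 dose. No untreated culture kept for 24 h or 48 h is analysed here, so TGFβ1 and further time in culture cannot be told apart. All cultures, the untreated ones included, were kept in humidified air with added CO2, in a medium with EGF, hydrocortisone, triiodothyronine, insulin, transferrin and selenium, and none was kept at low oxygen. The number of arrays limits the precision of every value.

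Glycolysis splits glucose into pyruvate in the cytosol, and lactate dehydrogenase turns the pyruvate into lactate. When oxygen is short, the transcription factor HIF, made of an alpha subunit (HIF-1α from HIF1A or HIF-2α from EPAS1) and a shared beta subunit, escapes destruction and raises the transcription of most glycolytic genes, of glucose transporters, and of genes for cell survival and pH control. HIF-1α is controlled mainly through its protein, which an mRNA level does not show. CA12 is a membrane enzyme that hydrates CO2 outside the cell and is counted among the hypoxia-inducible carbonic anhydrases. The proximal tubule in the body makes glucose and burns little of it, whereas proximal tubule lines in culture are known to use glycolysis.

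HIF binds DNA at a short core, ACGTG or GCGTG, and promoter windows are shown for 4 genes to give the sequence context of the changes described next. The 4 genes are CA12, which was lower on every treated array, and BNIP3, DDIT4 and ENO2, which were lower at 24 h in every run and differed between runs. HK2, PGK1, SLC2A3, NDRG1, ADM, HILPDA, KDM3A and MXI1 also met that last description and are not printed. The printed windows therefore do not stand for all genes that changed. Each line gives the 250 bases before the RefSeq start on the gene's strand (GRCh38.p14), with matches to either core on either strand in capitals, so that CACGT and CACGC are the cores read on the other strand.
CA12: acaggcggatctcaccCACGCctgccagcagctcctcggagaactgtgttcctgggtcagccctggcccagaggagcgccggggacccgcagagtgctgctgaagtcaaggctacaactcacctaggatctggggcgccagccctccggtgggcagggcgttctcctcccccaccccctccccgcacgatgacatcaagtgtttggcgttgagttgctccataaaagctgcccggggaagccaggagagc
BNIP3: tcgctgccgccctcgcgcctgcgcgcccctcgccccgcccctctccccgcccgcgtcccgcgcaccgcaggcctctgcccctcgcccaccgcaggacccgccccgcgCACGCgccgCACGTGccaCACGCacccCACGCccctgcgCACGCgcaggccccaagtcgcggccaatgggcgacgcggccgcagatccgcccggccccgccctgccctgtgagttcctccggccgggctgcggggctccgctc
DDIT4: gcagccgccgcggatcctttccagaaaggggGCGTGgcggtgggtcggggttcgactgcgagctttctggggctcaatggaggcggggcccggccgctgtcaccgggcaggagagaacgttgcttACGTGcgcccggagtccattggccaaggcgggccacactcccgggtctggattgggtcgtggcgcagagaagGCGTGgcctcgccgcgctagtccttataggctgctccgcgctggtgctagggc
ENO2: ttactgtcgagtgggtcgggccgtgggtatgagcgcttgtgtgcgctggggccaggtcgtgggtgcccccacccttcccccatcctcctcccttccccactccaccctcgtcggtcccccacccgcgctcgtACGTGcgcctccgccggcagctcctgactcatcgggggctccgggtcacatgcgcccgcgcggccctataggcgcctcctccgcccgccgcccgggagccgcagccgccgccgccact
The CA12 window lies at chr15:63381847-63382096 on the minus strand and holds 1 match, 234 to 230 bases before the start. The BNIP3 window, at chr10:131981924-131982173 on the minus strand, holds 6 matches within 143 to 100 bases before the start, and 2 of them overlap in the palindrome CACGTG. The DDIT4 window, at chr10:72273674-72273923 on the plus strand, holds 3 matches, and the ENO2 window, at chr12:6914330-6914579 on the plus strand, holds 1. Promoter windows were found for 29 of the 33 genes, and 24 of these 29 genes (82.8%) had a match in at least 1 window, against 47.4% of all 27305 genes with windows. Some genes have several windows: among genes with 1 window, 12 of 17 (70.6%) had a match, against 42.2% of 22114. The genes compared against were not limited to those tested here and were not matched for base content, so these shares do not measure enrichment of HIF sites. A match is only a string of letters, and several of these genes entered lists of hypoxia genes because such cores were studied in them.

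CA12 was lower at 24 h and 48 h in every run, and the 8 tested genes listed by role as HIF targets were lower at 24 h in every run. Glycolytic genes and glucose transporters, many of which HIF also raises, were listed under other roles and did not all fall. No enzyme from GAPDH to lactate dehydrogenase passed a test, and SLC2A1 and PFKP were higher within every run. In a fit across all genes that ignores the runs (limma with Benjamini-Hochberg adjustment, threshold 0.05), none of the 29 genes passed at 24 h against untreated, where 4.81% of all genes tested did (2.63% higher and 2.17% lower), and none passed at 48 h, where 4.44% did (2.27% higher and 2.17% lower). At an unadjusted p under 0.05, 4 of the 29 passed at each time, against 16% of all genes at 24 h and 13.9% at 48 h. Same-run arrays deviated together, so the fit was also made with the run as a block, which compares the times within runs. With the block, 8 of the 29 genes (27.6%) passed at 24 h against 11.5% of all genes: 2 rose, against 5.95%, and 6 fell, against 5.52%. At 48 h, 6 of 29 (20.7%) passed with the block against 10% of all genes: 1 rose, against 5.22%, and 5 fell, against 4.81%. With the run as a random block, 4 passed at 24 h against 11.1% of all genes, 2 higher (5.91%) and 2 lower (5.24%). At 48 h 2 passed with it, both lower, against 9.89% of all genes in either direction and 4.67% lower. CA12 is among the genes counted as lower at both times with either block. It reached the filter only through its untreated arrays, so its part in these counts is no support. The block calls lean on all 3 runs: with a run left out and the block kept, 3, 3 and 0 genes passed at 24 h without runs 1, 2 and 3 (NDRG1, ADM and HIF1A without run 1, SLC2A3, NDRG1 and ADM without run 2), where 6.48%, 5.66% and 4.68% of all genes did, and 0 passed at 48 h in each case, where 4.1%, 4.86% and 5.88% did.

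The genes were also counted by direction within runs. At 24 h, 19 of the 29 genes (65.5%) were lower than untreated in all 3 runs, against 19.8% of all genes tested, and 4 genes (HK1, PFKM, PFKP and SLC2A1) were higher in all 3, against 24.9%. At 48 h, 9 of 29 (31%) were lower in all 3 runs, against 18.2% of all genes, and 3 were higher in all 3, against 23.2%. The median log2 change over the 29 genes was −0.23 at 24 h and −0.06 at 48 h, beside 0.02 and 0.02 over all genes. The mean was lower in 22 genes and higher in 7 at 24 h, against 47.6% and 52.4% of all genes, and lower in 20 and higher in 9 at 48 h, against 45.3% and 54.7%. Every 24 h array lay below every untreated array in 5 genes (PFKL, LDHB, CA12, BNIP3L and HIF1A), against 7.72% of all genes. Every 48 h array did in 3 (PFKL, CA12 and HIF1A), against 8.31%. CA12 is counted among the lower genes throughout and, having reached the filter only through untreated arrays, is no support there. In cultures read in bulk, fewer cells of a kind and less RNA per cell cannot be told apart.

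**Figure D1:**
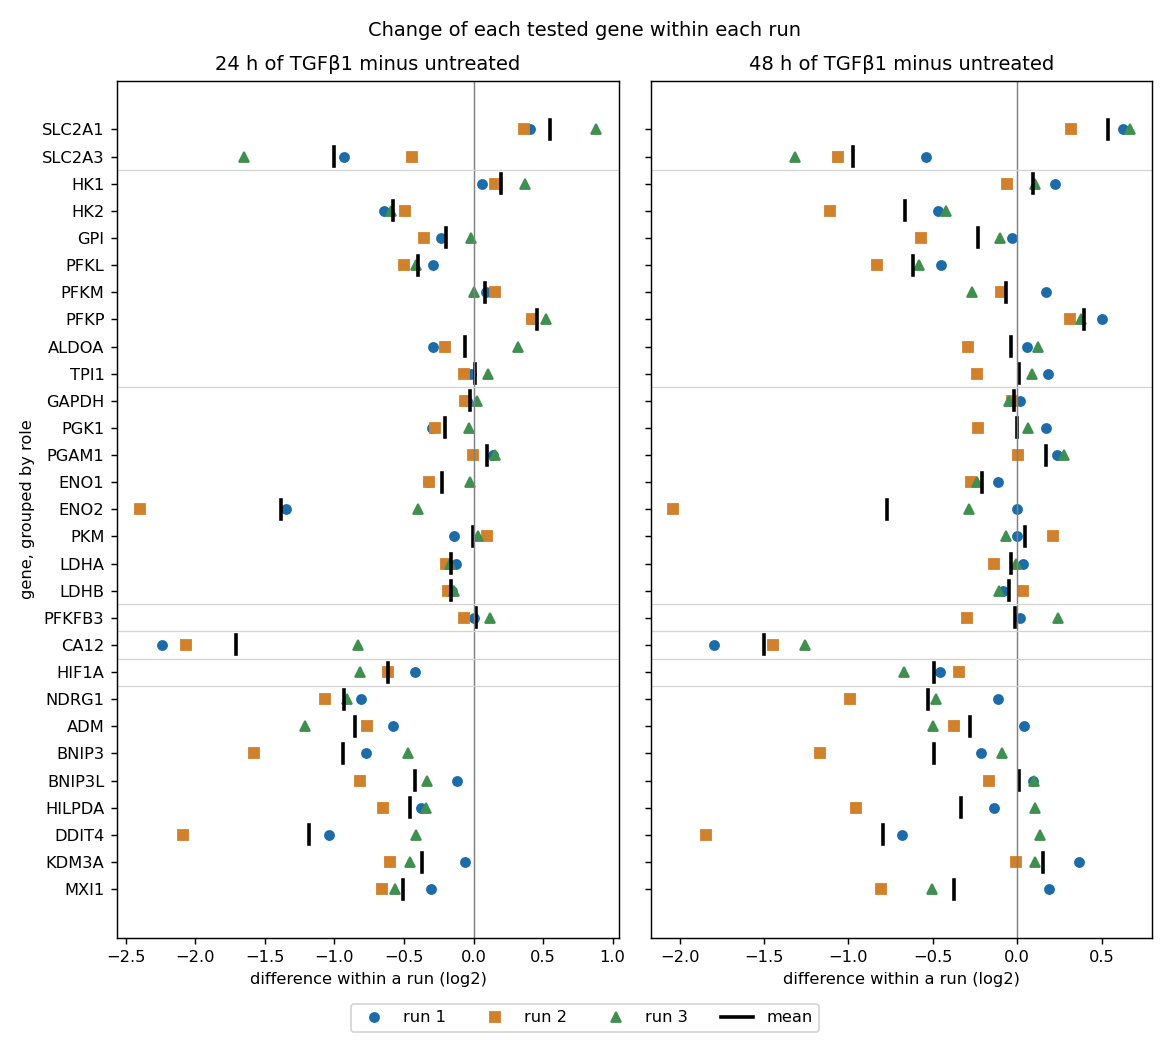
Change in log2 level of each of the 29 tested genes within each of the 3 runs, 24 h minus untreated in the left panel and 48 h minus untreated in the right panel, with genes down the page by role. Points are runs and the tick marks their mean; at 24 h the CA12 points lie at −2.24, −2.06 and −0.83, and the points of the 8 HIF target genes all lie below 0.

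Glucose enters cells through GLUT1, the ubiquitous carrier encoded by SLC2A1, and GLUT3, the high-affinity carrier encoded by SLC2A3. SLC2A1 read 4.61, 4.86 and 4.95 in untreated runs 1, 2 and 3, then 5.01, 5.22 and 5.83 at 24 h and 5.24, 5.18 and 5.61 at 48 h. Every treated array lay above every untreated array, and SLC2A1 was the only tested gene of the set with that pattern at either time, which 8.68% of all genes showed at 24 h and 9.75% at 48 h. Its log2 change was 0.55 (SE 0.22, adjusted p = 0.262) at 24 h and 0.54 (adjusted p = 0.303) at 48 h in limma, and it rose at both times with the run as a block (adjusted p = 0.0359 and 0.0433). With the run as a random block, which uses an estimated correlation, the 24 h call held (adjusted p = 0.0468) and the 48 h call did not (adjusted p = 0.0562).

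SLC2A3 went the other way. It read 5.29, 4.15 and 7.02 in untreated runs 1, 2 and 3, 4.36, 3.71 and 5.37 at 24 h, and 4.75, 3.08 and 5.70 at 48 h. The groups overlapped widely because run 3 was high and run 2 low at every time, yet within each run both treated arrays were below the untreated one. The log2 change was −1.01 at 24 h (SE 0.81, limma adjusted p = 0.599) and −0.97 at 48 h (adjusted p = 0.722), and with the block the gene fell at both times (adjusted p = 0.0291 and 0.0367), calls that were lost with the random block (adjusted p = 0.205 and 0.257). All 4 other SLC2A3 probe sets had lower means at 24 h, with log2 changes between −1.36 and −0.59, but some of these probe sets also list SLC2A14, a near-identical paralogue, so the signal cannot be assigned to SLC2A3 alone.

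In the upper part of the pathway, as far as triose phosphate, 8 enzymes were tested and their median log2 change was −0.03 at 24 h and −0.05 at 48 h. PFKP and PFKL encode forms of phosphofructokinase-1, the enzyme of the committed step, in platelet and liver type, and they moved apart. PFKP read 7.61, 7.73 and 8.06 in untreated runs 1, 2 and 3, 8.03, 8.15 and 8.58 at 24 h, and 8.12, 8.04 and 8.43 at 48 h, higher than untreated within every run. Its log2 change of 0.45 at 24 h (SE 0.19, limma adjusted p = 0.288) passed with the block (adjusted p = 0.0276), and that of 0.40 at 48 h did not (adjusted p = 0.427, and 0.0509 with the block).

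PFKL read 4.92, 4.96 and 5.30 in untreated runs 1, 2 and 3, 4.63, 4.47 and 4.88 at 24 h, and 4.47, 4.14 and 4.72 at 48 h. Its treated arrays all lay below the untreated ones, and it was the only tested gene of the set that was lower at 48 h than at 24 h in every run. The log2 change was −0.40 at 24 h (SE 0.19, limma adjusted p = 0.340, with the block 0.0545) and −0.62 at 48 h (adjusted p = 0.124), where it fell with the block (adjusted p = 0.00999). PFKM, the muscle form, differed by 0.08 at 24 h and −0.06 at 48 h.

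Hexokinase traps glucose in the cell as its phosphate. HK2, the inducible and HIF-responsive form, read 6.28, 5.64 and 6.70 in untreated runs 1, 2 and 3, 5.64, 5.15 and 6.11 at 24 h, and 5.81, 4.53 and 6.28 at 48 h, so that each run dropped at both times while the groups overlapped. The log2 change was −0.58 at 24 h (SE 0.45, limma adjusted p = 0.584, with the block 0.0660) and −0.67 at 48 h (adjusted p = 0.617), and HK2 fell at 48 h with the block (adjusted p = 0.0442) but not with the random block (adjusted p = 0.178). HK1, the constitutive form, differed by 0.19 and 0.09. GPI, phosphoglucose isomerase, differed by −0.20 at 24 h and −0.23 at 48 h, and ALDOA, the aldolase of muscle and most other cells, by −0.06 and −0.04. TPI1, triose phosphate isomerase, differed by 0.01 at both times, and none of these 4 genes passed with or without the block. PFKFB3, whose product makes the activator of phosphofructokinase-1, differed by 0.02 at 24 h and −0.01 at 48 h.

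In the lower part, from GAPDH to lactate dehydrogenase, none of the 8 genes tested passed at either time in either fit. GAPDH had the highest values of the set, with 12.18, 12.28 and 12.28 in untreated runs 1, 2 and 3, 12.13, 12.22 and 12.30 at 24 h, and 12.19, 12.25 and 12.23 at 48 h. Its log2 change was −0.03 at 24 h (95% interval −0.29 to 0.23) and −0.02 at 48 h (95% interval −0.28 to 0.24). PGK1, PGAM1, ENO1, PKM, LDHA and LDHB lay between 10.05 and 11.58 on all 9 arrays, and their log2 changes lay between −0.23 and 0.17 over both times. LDHB, the heart-type subunit of lactate dehydrogenase, was lower on every 24 h array than on every untreated array, with 11.22, 11.20 and 11.26 at 24 h against 11.37, 11.39 and 11.40 in untreated cells, a log2 change of −0.16 (SE 0.11, limma adjusted p = 0.548).

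ENO2, the neuronal form of enolase and a HIF-responsive gene, stood apart from the other lower glycolytic genes. It read 5.10, 5.21 and 6.23 in untreated runs 1, 2 and 3, 3.76, 2.81 and 5.82 at 24 h, and 5.10, 3.18 and 5.94 at 48 h. The drop was over 1 log2 unit in runs 1 and 2 at 24 h and under that in run 3, and at 48 h run 1 was back at its untreated value while run 2 was not. The log2 change was −1.38 at 24 h (SE 0.83, limma adjusted p = 0.481, with the block 0.0589) and −0.77 at 48 h (adjusted p = 0.804), so it passed in neither fit.

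CA12 reached log2 4 only on the untreated arrays, on all 3 of them, so it entered the test only because it was high there and its calls are no support. Its probe set with the highest mean read 5.24, 4.07 and 4.70 in untreated runs 1, 2 and 3, 3.0, 2.01 and 3.87 at 24 h, and 3.44, 2.62 and 3.44 at 48 h. Every treated array was below every untreated array, and the log2 change was −1.71 at 24 h (SE 0.46) and −1.5 at 48 h. The treated values lie low on this scale, where differences are compressed. The limma fit did not pass it at either time (adjusted p = 0.0789 and 0.130), and with the run as a block it fell at both (adjusted p = 0.00358 and 0.00698). It was the 1 tested gene of the set that passed the filter through a single group, and it leaves the test when any untreated array is left out. With no filter, over all 11963 genes, it did not pass at either time without the block (adjusted p = 0.126 and 0.214). Run 3 dropped least at 24 h, and without its 24 h array CA12 changed by −2.17 and passed without the block (limma adjusted p = 0.0361). Without the 24 h array of run 2 it changed by −1.24 and did not pass (limma adjusted p = 0.208). Leaving out any other treated array gave no pass at 24 h either (lowest limma adjusted p = 0.0866). The single pass came from removing the array with the smallest drop and is no support.

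The other CA12 probe sets read the same gene with other probes on the same arrays. The second probe set past the filter read 4.65, 4.17 and 4.77 in untreated runs 1, 2 and 3, 2.91, 2.72 and 2.82 at 24 h, and 3.21, 2.15 and 3.20 at 48 h. It too reached log2 4 only on the untreated arrays, so the filtered test of it is no support. In a limma fit over all probe sets with no filter and no block, its change was −1.71 at 24 h (SE 0.27, adjusted p = 0.0149) and −1.67 at 48 h (adjusted p = 0.0164), where 1.2% and 1.21% of all probe sets passed. Another probe set, below the filter, read 3.80, 3.52 and 4.86 in untreated runs 1, 2 and 3, 2.06, 2.18 and 2.76 at 24 h, and 2.76, 2.20 and 2.60 at 48 h, again with no overlap between treated and untreated arrays; in the same fit it passed at 24 h (adjusted p = 0.0366) and not at 48 h (adjusted p = 0.0616). A further probe set read 2.98, 2.21 and 2.87 in untreated runs 1, 2 and 3, 1.91, 2.13 and 1.79 at 24 h, and 2.08, 1.62 and 2.03 at 48 h. It also had no overlap, and its changes of −0.75 and −0.78 did not pass in the same fit (adjusted p = 0.195 and 0.174). The gap was narrow: its lowest untreated and highest treated values were both in run 2, which changed by −0.08 at 24 h. All its values lie low, where differences are compressed. The remaining 2 probe sets lay low, where the median of the whole array was 2.20 to 2.23. Of these, 1 read 2.59, 1.64 and 2.73 in untreated runs 1, 2 and 3, 1.92, 1.64 and 1.71 at 24 h, and 1.74, 1.72 and 1.72 at 48 h. It was lower after TGFβ1 in runs 1 and 3, hardly changed in run 2, and did not pass in the same fit (adjusted p = 0.474 and 0.510). The other lay between 1.58 and 1.94 on all arrays. The names of the 2 probe sets past the filter mark probes that can also match other transcripts.

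**Figure D2:**
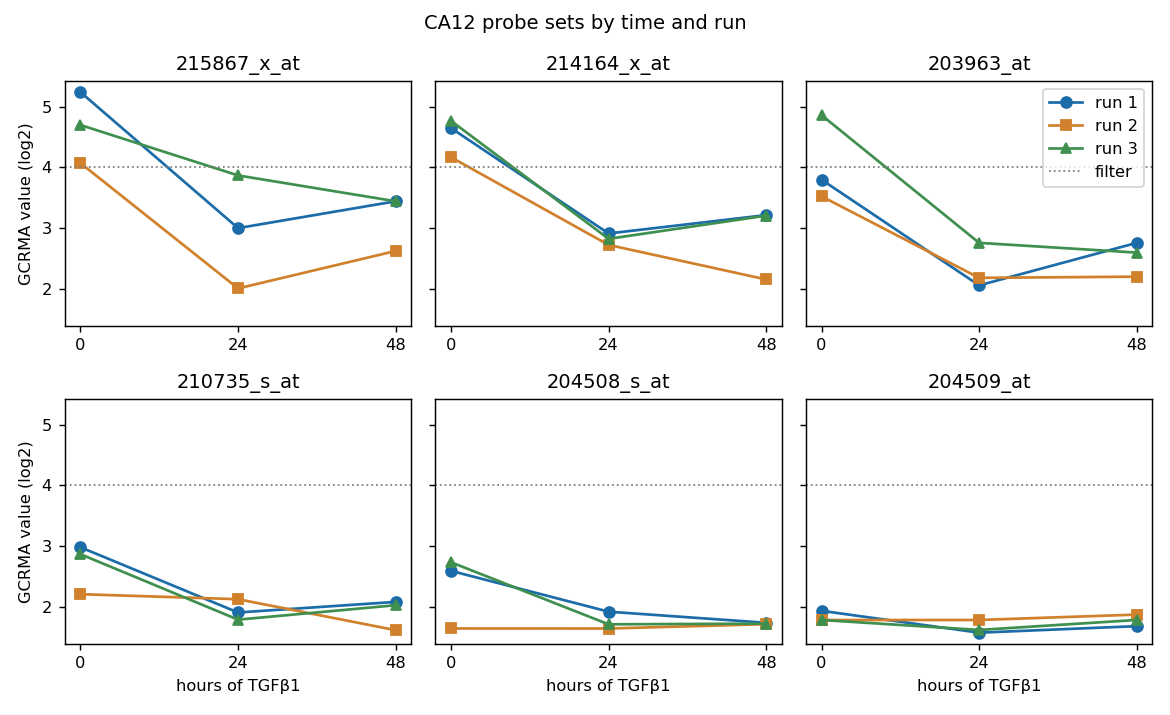
Log2 level of each of the 6 CA12 probe sets by time, with a line per run; the dotted line marks log2 4, the level used in the filter. In the 4 probe sets with the highest values every treated array lies below every untreated array, narrowly so in the lowest of the 4. The other 2 lie low, and 1 of them is lower after TGFβ1 in runs 1 and 3 but hardly changes in run 2.

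HIF1A, which encodes the oxygen-regulated HIF-1α, was itself lower after TGFβ1. It read 10.29, 9.90 and 10.52 in untreated runs 1, 2 and 3, 9.86, 9.28 and 9.70 at 24 h, and 9.83, 9.55 and 9.85 at 48 h. No treated array reached an untreated one. The log2 change was −0.62 at 24 h (SE 0.21, limma adjusted p = 0.161) and −0.49 at 48 h (adjusted p = 0.315), and HIF1A fell at both times with the block (adjusted p = 0.0131 and 0.0377). With the random block the 24 h call held (adjusted p = 0.0178) and the 48 h call did not (adjusted p = 0.0535). EGLN3, a prolyl hydroxylase that marks HIF-α for destruction and is itself a HIF target, was below the filter, and its value of 4.03 in untreated run 2 was its only one above 2.97.

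The 8 tested genes listed by role as HIF targets were NDRG1, ADM, BNIP3, BNIP3L, HILPDA, DDIT4, KDM3A and MXI1. They were lower than untreated at 24 h in all 3 runs, 8 of 8 in each. Their median log2 difference was −0.48 in run 1, −0.79 in run 2 and −0.47 in run 3. At 48 h the runs disagreed: the median was −0.04 in run 1, −0.88 in run 2 and 0.00 in run 3, and 4, 8 and 4 of the 8 genes were lower. None passed in the limma fit without the block at either time; with the block 3 fell at 24 h (NDRG1, ADM and BNIP3), where 5.52% of all genes fell, and none did at 48 h, where 4.81% fell. All 3 calls were lost with the random block (adjusted p = 0.184 for NDRG1, 0.0782 for ADM and 0.0650 for BNIP3). A count of genes lower in all 3 runs is descriptive here, since these genes also vary together between runs, as described further on.

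NDRG1, a stress-response gene strongly raised by hypoxia, read 5.58, 5.21 and 7.17 in untreated runs 1, 2 and 3, 4.77, 4.14 and 6.26 at 24 h, and 5.46, 4.22 and 6.69 at 48 h. Run 3 at 24 h was above untreated runs 1 and 2, so the groups overlapped, but the drop within runs was alike, and the log2 change of −0.93 at 24 h (SE 0.74, limma adjusted p = 0.595) passed with the block (adjusted p = 0.00790). At 48 h it was −0.53 (adjusted p = 0.875, with the block 0.0863).

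ADM encodes adrenomedullin, a vasodilator peptide. It read 4.00, 4.07 and 5.51 in untreated runs 1, 2 and 3, 3.42, 3.30 and 4.30 at 24 h, and 4.04, 3.69 and 5.01 at 48 h. Its log2 change was −0.85 at 24 h (SE 0.47, limma adjusted p = 0.440), where it fell with the block (adjusted p = 0.00732), and −0.28 at 48 h. By 48 h run 1 was near its untreated value and runs 2 and 3 lay between their 24 h and untreated values.

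BNIP3 and BNIP3L encode mitochondrial proteins that mark mitochondria for removal. BNIP3, whose window with 6 cores is printed above, read 9.71, 10.17 and 10.54 in untreated runs 1, 2 and 3, 8.93, 8.59 and 10.07 at 24 h, and 9.50, 9.0 and 10.45 at 48 h. Its log2 change was −0.94 at 24 h (SE 0.44, limma adjusted p = 0.342), where it fell with the block (adjusted p = 0.0265), and −0.49 at 48 h (adjusted p = 0.753). BNIP3L, in its probe set with the highest mean, differed by −0.42 at 24 h, with every 24 h array below every untreated one. At 48 h it differed by 0.01, and it passed in neither fit. A second probe set read 7.91, 7.72 and 8.67 in untreated runs 1, 2 and 3 and 7.74, 7.06 and 8.13 at 24 h, with overlap. In the limma fit over probe sets with the block it barely passed at 24 h (adjusted p = 0.04998), where 5% of all probe sets fell.

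DDIT4, an inhibitor of mTOR complex 1 induced by hypoxia and other stresses, read 8.54, 8.55 and 9.70 in untreated runs 1, 2 and 3, 7.5, 6.46 and 9.29 at 24 h, and 7.86, 6.71 and 9.83 at 48 h. Runs 1 and 2 stayed below their untreated values at 48 h and run 3 did not, and the log2 change was −1.18 at 24 h (SE 0.85, limma adjusted p = 0.554, with the block 0.0515) and −0.80 at 48 h. HILPDA, a lipid droplet protein, KDM3A, a histone demethylase, and MXI1, an antagonist of MYC, had log2 changes of −0.46, −0.37 and −0.51 at 24 h and −0.33, 0.15 and −0.38 at 48 h. None of these 4 genes passed at either time in either fit.

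EGLN3 was 1 of 4 genes below the filter. Of the others, PFKFB4, a second form of the enzyme that makes the phosphofructokinase activator, lay between 1.09 and 1.66 on all arrays, and ALDOC, the brain form of aldolase, between 1.31 and 2.07. PDK1, a kinase that shuts off pyruvate dehydrogenase and a textbook HIF target, lay between 2.15 and 3.08. At such levels these arrays do not resolve a change.

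Between 24 h and 48 h of TGFβ1, none of the 29 genes passed in either fit, and none of the 4368 genes did (0%; with the run as a random block 0.0229%, 1 gene, none of it from the set); at an unadjusted p under 0.05 without the block 0 of 29 passed, against 5.01% of all genes. Direction was less even: 11 of 29 genes (37.9%) were higher at 48 h than at 24 h in all 3 runs, against 21.1% of all genes, and PFKL was the only one lower in all 3, against 22.3%. The mean was higher in 21 genes and lower in 8, against 50.5% and 49.5% of all genes. LDHB was the only gene with every 48 h array above every 24 h array, against 6.34% of all genes, and none was below without overlap, against 6.25%. The mean of all 8 HIF target genes was higher at 48 h than at 24 h, with a median log2 difference of 0.42. ADM had 4.04, 3.69 and 5.01 at 48 h in runs 1, 2 and 3, against 3.42, 3.30 and 4.30 at 24 h, a log2 difference of 0.57 (SE 0.47, limma adjusted p = 0.793, with the block 0.210). KDM3A had 6.16, 5.24 and 6.47 at 48 h in runs 1, 2 and 3, against 5.73, 4.66 and 5.91 at 24 h, a log2 difference of 0.53 (adjusted p = 0.793, with the block 0.194).

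The runs also differed from each other in these genes. Each run holds the same 3 times, so a mean over a run weighs the times equally, and an F test over the 3 runs in the block fit, added after the values had been seen, called 15 of the 29 genes (51.7%), against 14.7% of all genes. Run 3 had the highest mean in 27 of 29 genes (93.1%), against 36.2% of all genes, and run 2 the lowest in 16 (55.2%), against 36.4%. Among the 8 HIF target genes, 7 differed between runs and all 8 were highest in run 3, by a median of 1.11 log2 units over the mean of runs 1 and 2. Day and passage changed together, so they cannot be told apart.

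The excess of run 3 was largest in DDIT4, SLC2A3, NDRG1 and ENO2. DDIT4 had run means of 7.96, 7.24 and 9.61 in runs 1, 2 and 3, and run 3 exceeded the mean of the others by 2.01 (F test in limma, adjusted p = 0.0140). SLC2A3 and NDRG1 exceeded it by 1.81 each (adjusted p = 0.00738 and 0.0033), ENO2 by 1.80 (adjusted p = 0.0264), MXI1 by 1.39 (adjusted p = 0.00738) and ADM by 1.19 (adjusted p = 0.00879). BNIP3 and HILPDA exceeded it by 1.04 and 1.01 (adjusted p = 0.0277 and 0.0203). Smaller excesses that passed the F test included 0.86 in HK2, 0.77 in KDM3A, 0.75 in HK1 and 0.46 in PGK1 (adjusted p = 0.0140, 0.00825, 0.0173 and 0.0493). Those of 0.44 in SLC2A1 and 0.29 in LDHA did not pass it (adjusted p = 0.0685 and 0.0970). At the other end GAPDH differed by 0.06, LDHB by 0.00 in size and PFKM by −0.08, and none of these 3 passed.

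**Figure D3:**
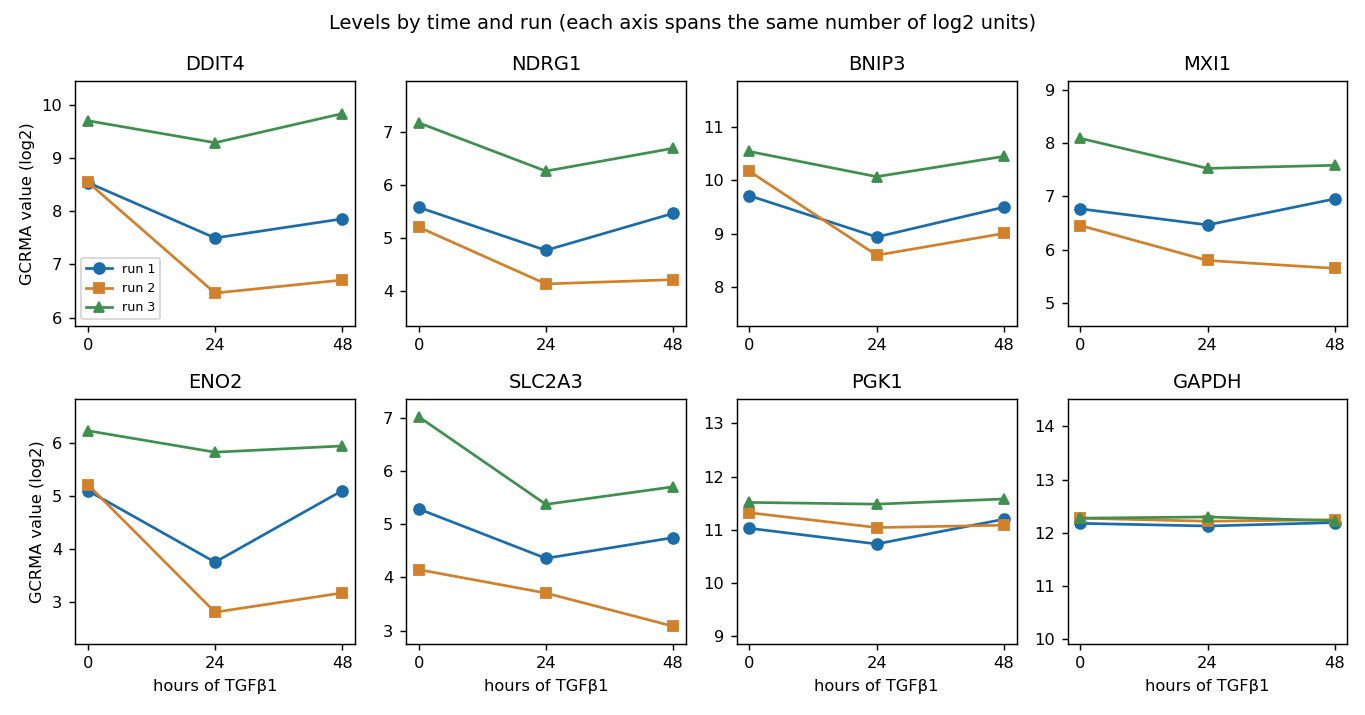
Log2 level by time in each of the 3 runs for 8 of the genes, a line per run and axes that span the same number of log2 units. The line of run 3 lies above the others at all 3 times in DDIT4, NDRG1, BNIP3, MXI1, ENO2, SLC2A3 and PGK1, and the lines of GAPDH nearly coincide.

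Split into shares of each gene's sum of squares, run took a median of 71% over the 29 genes and time 18.2%, beside 38.6% and 29.2% over all genes tested. The run share exceeded the time share in 22 of 29 genes (75.9%), against 57.4% of all genes. Time took the larger share in LDHB (72.2%), CA12 (64.6%), PFKL (63.4%), HIF1A (59.6%), SLC2A1 (52.7%), PFKP (50.3%) and PFKM (29.8%). The run share was highest in HK1 (90.1%), PFKFB3 (89.0%), MXI1 (87.4%), PKM (85.2%) and NDRG1 (83.1%), glycolytic genes and HIF targets alike, and the time share was lowest in TPI1 (0.0593%). A share does not give the size of a difference. The F test between runs did not call PKM (adjusted p = 0.0851) or GAPDH (adjusted p = 0.676), whose run share was 71.6% over a range of run means of 0.10. LDHB changed by only −0.16 at 24 h and did not pass (limma adjusted p = 0.548).

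**Figure D4:**
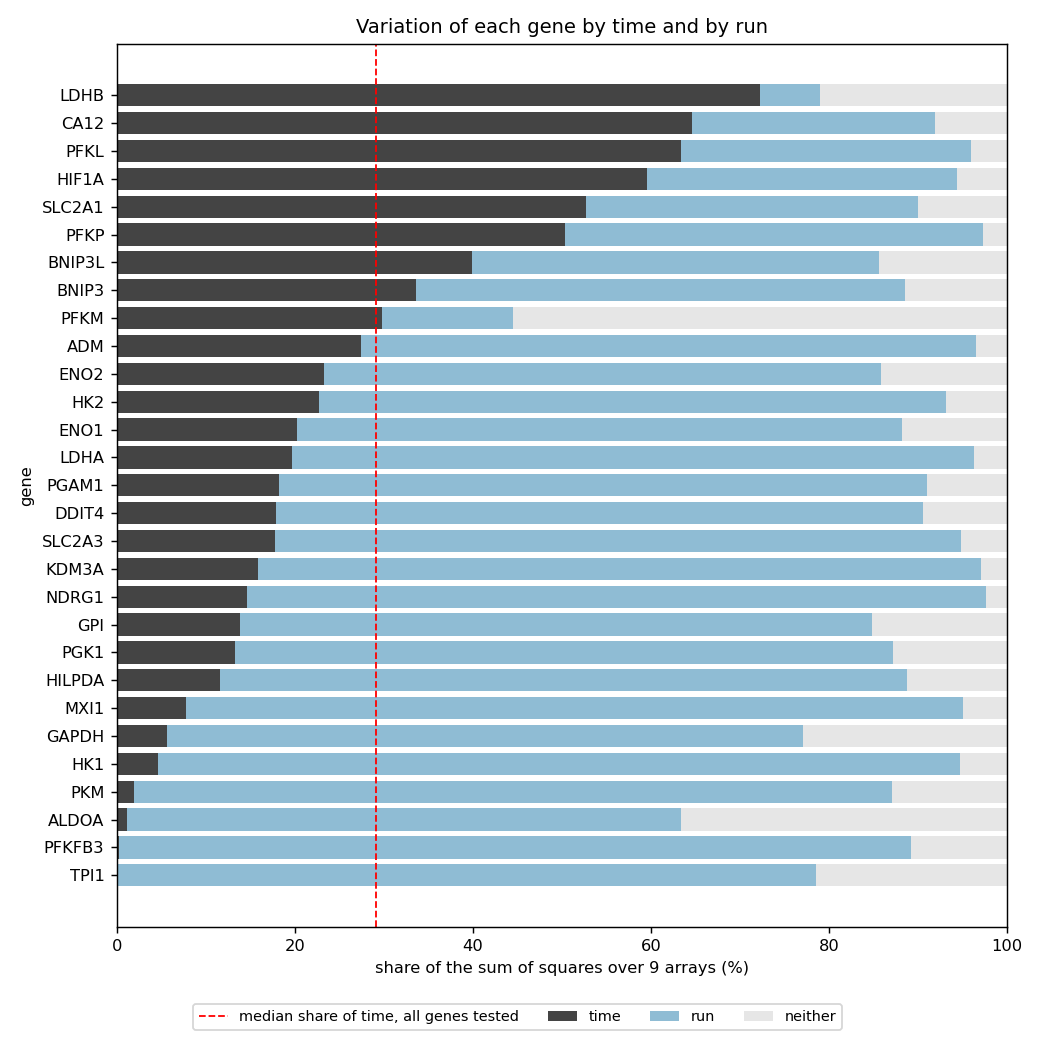
Share of each tested gene's sum of squares, in percent, taken by time (dark), by run (blue) and by neither (light), with a bar per gene in order of the time share. The dashed line marks the median time share of all 4368 genes, 29.2%; LDHB, CA12, PFKL and HIF1A lead the order, and run takes 70% or more in 16 of the 29 genes, with HK1, PFKFB3, MXI1 and PKM at the end of that range.

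As context for the whole arrays, medians were 2.20 to 2.23 and 28.2% to 29.3% of probe sets per array passed log2 4. The excess of the 3′ over the 5′ GAPDH control probe set, a sign of shortened RNA, was 0.15 to 0.17 in run 3, 0.16 to 0.27 in run 2 and 0.22 to 0.33 in run 1. That of the ACTB control was 0.89 to 1.09 in run 3, 0.90 to 1.02 in run 2 and 1.03 to 1.15 in run 1, and within runs 1, 2 and 3 it was 1.03, 0.90 and 0.89 at 24 h against 1.15, 1.02 and 1.09 in untreated cells. The part of these values in the time and run differences was not tested. Of 9 proximal tubule markers on the array only PAX8 passed the filter and 8 did not reach log2 4 on 3 arrays, while 4 of 5 epithelial markers passed (KRT8, KRT18, KRT19 and EPCAM). The summed linear level of the tubule markers was 131 to 141 at 24 h and 112 to 126 at 48 h, against 188 to 194 in untreated cells, and that of the epithelial markers was 1526 to 1988 at 24 h and 1348 to 1701 at 48 h, against 1742 to 2143. No endothelial marker (of 5) and no leukocyte marker (of 4) passed, and of 6 fibroblast markers only LUM did, with a summed level of 81.8 to 115 at 24 h and 127 to 146 at 48 h, against 103 to 132. Of 5 distal nephron markers only SCNN1A passed, and their summed level was 16.3 to 26.0 at 24 h and 19.1 to 26.0 at 48 h, against 79.9 to 129 in untreated cells. The part of these shifts in the results was not tested.

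Other genes of the same pathways, listed by role, put these values in context. The list of HIF pathway control held 10 tested genes, of which 1 fell at 24 h and 2 at 48 h without the block, where 2.17% of all genes fell at each time. EPAS1, encoding HIF-2α, averaged 9.17 ± 0.31 untreated, 7.75 ± 0.32 after 24 h and 7.74 ± 0.36 after 48 h (SD, n = 3 each), and fell by 1.42 at 24 h (SE 0.24, limma adjusted p = 0.0101) and by 1.43 at 48 h (adjusted p = 0.00944). CITED2, which competes with HIF-α for its coactivators, fell by 1.30 at 48 h (SE 0.30, adjusted p = 0.0434), and its change of −1.23 at 24 h (adjusted p = 0.0539) passed with the block (adjusted p = 0.000619).

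Of 23 other HIF target genes tested, 1 rose at 24 h and 2 rose at 48 h without the block, where 2.63% and 2.27% of all genes rose, and none fell, where 2.17% of all genes fell at each time. JMJD6, a lysyl hydroxylase, rose by 0.99 at 24 h (SE 0.22, limma adjusted p = 0.0362) and 0.94 at 48 h (adjusted p = 0.0489). P4HA2, a collagen prolyl hydroxylase, rose by 0.86 at 48 h (SE 0.20, adjusted p = 0.0413). With the block, 4 rose and 2 fell at 24 h, where 5.95% and 5.52% of all genes did, and 5 rose and 1 fell at 48 h, where 5.22% and 4.81% did. The genes that then rose included LOX, which crosslinks collagen, by 1.56 at 24 h (adjusted p = 0.0075 with the block), and BHLHE40, a clock-linked repressor, by 1.01 (adjusted p = 0.00135 with the block). LOX averaged 2.96 ± 0.62 in untreated cells (SD, n = 3), so it reached log2 4 only on treated arrays. Its call and its part in these counts are no support. TMEM45A rose by 1.27 at 48 h alone (adjusted p = 0.0035 with the block). TXNIP, which lowers glucose uptake, fell with the block by 1.38 at 24 h and 1.49 at 48 h (adjusted p = 0.00422 and 0.00295), and IGFBP3, which binds insulin-like growth factors, fell by 0.84 at 24 h (adjusted p = 0.0157 with the block). The list's median log2 change was −0.31 at 24 h and −0.07 at 48 h. Between runs, 13 of these 23 genes differed in the F test, against 14.7% of all genes, and 21 were highest in run 3, against 36.2%. VEGFA, the main angiogenic factor, chosen here after its values were seen, had run means of 8.19, 8.02 and 8.91 in runs 1, 2 and 3 (limma F test, adjusted p = 0.0194).

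In the other 4 lists every gene that passed fell. Without the block 2.17% of all genes fell at each time, and with it 5.52% fell at 24 h and 4.81% at 48 h. With the block, 2 of 4 carbonic anhydrases and pH transporters and 2 of 6 other glycolytic isoforms and lactate genes fell at each time. So did 1 of 15 genes of the pentose phosphate, glycogen and gluconeogenesis list. Of 4 tested carbonic anhydrases and pH transporters, CA11, a form without catalytic activity, fell by 1.08 at 24 h (SE 0.23, limma adjusted p = 0.0296) and by 1.05 at 48 h (adjusted p = 0.0337), and CA2, the cytosolic form, fell only with the block, by 0.64 and 0.60 (adjusted p = 0.0081 and 0.0115). Of 6 tested genes of other glycolytic isoforms and lactate handling, MPC2, a subunit of the mitochondrial pyruvate carrier, fell by 0.54 at 24 h (SE 0.12, adjusted p = 0.0308), and its change of −0.41 at 48 h passed with the block (adjusted p = 0.0421). SLC16A7, a monocarboxylate transporter of the same list, fell only with the block, by 0.71 and 0.93 (adjusted p = 0.0222 and 0.0069), and with the random block the 24 h call was lost (adjusted p = 0.0639). Of 15 tested genes of the pentose phosphate, glycogen and gluconeogenesis list, GBE1, the glycogen branching enzyme, fell with the block, by 1.14 at 24 h and 0.75 at 48 h (adjusted p = 0.000562 and 0.00413), and none passed without it. None of 6 genes of pyruvate dehydrogenase control passed in either fit at either time.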

How the data were processed

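Gene expression was measured with 9 Affymetrix arrays, 3 per group. The authors deposited log2 expression values per probe set, computed by GCRMA according to the submitters' processing notes, with no version named. GCRMA corrects background by probe sequence and normalizes between arrays, so low values cluster near 2 and differences there are compressed. The table held 22277 probe sets, 62 of them controls; 19070 had 1 gene symbol, 1043 several and 2164 none, and 19058 were matched by gene ID. Each gene took its probe set with the highest mean, and genes at log2 4 or more on at least 3 arrays were tested (4368 of 11963).

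limma 3.58.1 in R 4.3.3 was fitted to all 9 arrays, with Benjamini-Hochberg adjustment over all genes tested and a threshold of 0.05, and was tested on simulated data. The fit without a run block is given first. Same-numbered arrays share a day and passage, and their deviations from the group means correlated (r 0.38 to 0.66, against −0.53 to 0.19 across runs), so values with the run as a block are printed where they change a call. All analysed genes of the set are named, and of the other pathway lists those past the threshold in either fit, unless said otherwise. The genes and lists were chosen with earlier results of these data known. The F test between runs and the fits without a run in the block were chosen after seeing the data. Promoters are RefSeq's (GRCh38.p14). Some items are not reported here.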

Additional observations from a re-analysis of the deposited data

How the results depend on the processing

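No gene of the set passed at 24 h or 48 h against untreated in the limma fit without the block, so the counts depend on how runs are treated. CA12, which entered the test only through its untreated arrays, is among the genes counted with the replicate block and with the random block. With the replicate block 8 genes passed at 24 h and 6 at 48 h; with the run as a random block 4 and 2 passed; with a trended, robust variance 1 (CA12) passed at 24 h, where 5.36% of all genes did. Leaving out 1 array without the block gave 0 to 1 genes at 24 h, the 1 without 24 h replicate 3, and 0 at 48 h; leaving out a run with the block, chosen after seeing the data, gave 0 to 3 genes at 24 h and 0 at 48 h, with fewer samples in each such fit. Of the CA12 probe sets, the 2 past the filter got there only through untreated arrays; 1 passed at each time without the block and 2 did with the replicate block or the random block; at 24 h, 2 also passed with no filter on low values, and 1 to 2 did with an array left out. With the filter at log2 5 no CA12 probe set was tested. Between 48 h and 24 h no setting called any gene of the set. Of 2040 single-gene values under 24 settings, 1853 kept direction and side of the threshold, 28 passed under the alternative only and 159 changed sign with the threshold passed in neither, 13 of them outside the settings that leave out arrays. Since no gene of the set passed without the block, keeping the side here means not passing. Settings that change only the block, the filter or the variance model leave the log2 change as it was, so direction could not change in them. Low signal over background limits the readings of EGLN3, PDK1, ALDOC, PFKFB4 and CA12.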

Other observations

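Of the 23 other HIF target genes tested, 15 had run 3 highest and run 2 lowest and 7 had run 1 lowest; of the 13 that differed between runs, 11 had run 2 lowest and 2 (KDM4B and TMEM45A) had run 1 lowest. The 4 named next were chosen after their values were seen, from those with run 2 lowest. P4HA1, a collagen prolyl hydroxylase, had run means of 7.34, 6.65 and 7.75 in runs 1, 2 and 3 (limma F test, adjusted p = 0.0276), and PLOD2, a collagen lysyl hydroxylase, had 8.32, 7.73 and 8.85 (adjusted p = 0.0292). INSIG2, which restrains sterol synthesis, had 3.93, 3.09 and 5.03 (adjusted p = 0.0140), and SPAG4 had 4.29, 4.00 and 5.20 (adjusted p = 0.0325). Time took 9.63% of the sum of squares in P4HA1 and 4.31% in SPAG4, and run 75.5% and 76.3%.

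EPAS1 and CITED2, which fell after TGFβ1, also differed between runs (limma F test, adjusted p = 0.0327 and 0.0186), whereas the F test did not call MPC2 (adjusted p = 0.659), JMJD6 (adjusted p = 0.304) or CA11 (adjusted p = 0.414).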
